A study of Mus musculus with 4 samples.

Results

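The subunits of the oxidative phosphorylation complexes were examined in liver RNA of obese mice given galanin-like peptide (GALP), a hypothalamic neuropeptide, through the nose. Members were taken by gene symbol: nuclear genes whose names on the array begin as those of NADH dehydrogenase (Nduf), succinate dehydrogenase (Sdha to Sdhd), the cytochrome bc1 complex (Uqcr), cytochrome c oxidase (Cox4 to Cox8) and ATP synthase (Atp5). This gave 92 genes with 134 probes, of 26582 gene names on the array. Each gene was represented by its brightest probe without an outlier mark on any array, which left 88 genes, and 83 of them were well above background in all 8 channels (2 dyes on 4 arrays). By function the 92 genes were 7 core and 30 accessory subunits of complex I, 7 complex I assembly factors (Ndufaf1 to Ndufaf7), 4 genes of complex II, 8 of complex III, 18 of complex IV, 17 of complex V and Cox7a2l, a factor that helps complexes III and IV join. Ndufa4, named as a complex I gene, was counted with complex IV, where its protein is found.

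All mice were male C57BL/6J, bought at 8 weeks of age and fed a high-fat diet (14 weeks) until they weighed at least 40 g. Treated mice received 1 nmol of porcine GALP in 2 µL of saline with 5% α-cyclodextrin once daily for 11 days, and control mice were given saline. The study split the treated mice by their response into a pool of 4 that lost more weight (greater weight loss pool) and a pool of 4 that lost less (less weight loss pool). Each was hybridised against the same pooled RNA of 8 control mice. Each pool was measured on 2 two-colour arrays with the dyes exchanged, so that the 2 arrays of a pool are 1 replicate and n = 2 pools throughout. The pools were formed by weight outcome, mice within a pool cannot be told apart, and the spread among control mice enters no test. Because both ratios share the control pool, they are not independent, and a trait of that pool would move both together.

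Oxidative phosphorylation takes place in the inner mitochondrial membrane. Complexes I and II pass electrons from NADH and succinate to coenzyme Q, complex III passes them on to cytochrome c, and complex IV passes them to oxygen, while complex V makes ATP from the resulting proton gradient. Liver is rich in mitochondria and uses this chain to oxidise fatty acids. Several complex IV subunits exist as isoforms, and Cox6a2, Cox7a1 and Cox8b are the forms of skeletal muscle and heart, whereas Cox6a1, Cox7a2 and Cox8a are found in liver and most tissues.

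Values are log2 ratios of GALP over control, with 0 for equal signal. Between 40.5% and 46.7% of the spots in a channel were well above background, 232 to 319 spots per array carried an outlier mark, and 0 spots were saturated. Precision is limited by how few arrays there were. The members were bright: the median of their mean signals was 13850 units against 712.8 for all 10651 genes with signal in all 8 channels. All 6 hepatocyte markers were among these genes, with a median ratio of 0.12 in the greater and 0.035 in the less weight loss pool.

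Across the 83 members with signal the ratios lay close to 0. Their median was -0.034 in the greater weight loss pool, -0.0035 in the less weight loss pool and -0.018 for the mean of both, against -0.0096, -0.015 and -0.013 for all genes with signal. The mean ratio lay within 0.1 of 0 for 76 members (91.6%), compared with 52.5% of all genes with signal. Bright genes in general had smaller ratios: with a mean signal of at least 1000, the share within 0.1 was 94.7% of 75 members and 61.9% of 4489 genes. The fold and p-value thresholds of the study were applied here in a strict reading: a fold above 1.5 or below 0.75 in each pool, and a p-value of the scanner software under 0.01 and the same direction on all 4 arrays. By this rule 0 members were called, where 0.169% of all genes with signal were called higher and 0.272% lower. limma found 0 members and 0 of 41037 probes at an adjusted p under 0.05, a background of 0.0%. At an unadjusted p under 0.05 limma took 8 of 88 members (9.09%) and 11.6% of all probes. With limma's fit to probes with signal, the 95% interval of a member's mean ratio extended a median of 0.165 to each side. These values do not show that the members were unchanged.

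**Figure D1:**
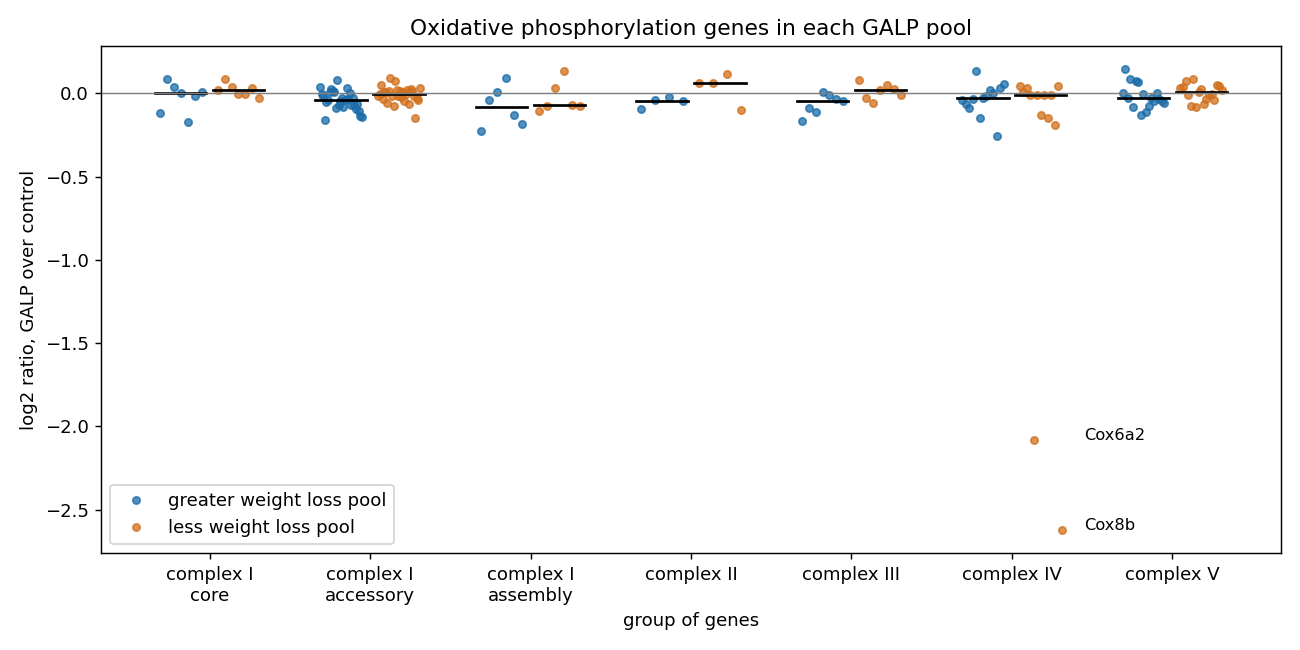
Log2 ratio of GALP over control (vertical axis) for the members with signal other than Cox7a2l, by group of genes, in the greater (blue) and less (orange) weight loss pool. Each point is the mean of the 2 arrays of a pool and black lines are medians; all points lie near 0 except Cox6a2 at -2.08 and Cox8b at -2.62 in the less weight loss pool.

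Few members kept one direction. Of the 83 members, 3 were above 0 on all 4 arrays (3.61%) and 7 were below 0 (8.43%), against 13.1% and 14.8% of all genes with signal. The 3 became 0 with normexp and loess and 6 when each array was centred on its median. The 2 arrays of a pool, with the dyes exchanged, differed by a median of 0.12 for the members in either pool, against 0.17 in the greater and 0.21 in the less weight loss pool for all genes with signal. In some members the sign followed the dye. For example, Ndufb8, an accessory subunit of complex I, had 0.14 and -0.27 in the greater weight loss pool and 0.16 and -0.29 in the less weight loss pool, positive with GALP in Cy5 and negative with GALP in Cy3. Atp5l, a membrane subunit of ATP synthase, had 0.073 and -0.17, then 0.24 and -0.25, in the same order. These 2 genes were chosen after their values were seen.

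The 7 core subunits of complex I, which carry its flavin and iron-sulphur centres, had a median of 0.0019 in the greater and 0.021 in the less weight loss pool. Ndufv1, which binds NADH, had -0.15, 0.12, -0.10 and 0.16 on the 4 arrays, listed here and below as GALP in Cy5 then Cy3 for the greater and then the less weight loss pool. Its pool means were -0.016 and 0.032, and its 95% interval by limma was -0.16 to 0.17. Ndufv2 had 0.070, -0.055, 0.21 and -0.26, and Ndufs1, the largest iron-sulphur subunit, had -0.14, -0.099, -0.017 and 0.059. The arrays of Ndufv2 overlapped between pools, and both values of Ndufs1 in the greater lay below both in the less weight loss pool. Ndufs3 and Ndufs7 had pool means of 0.035 and 0.040, and 0.0019 and -0.0035. Ndufs8, an iron-sulphur subunit, had -0.23, -0.11, -0.10 and 0.095, which gave -0.17 in the greater and -0.0024 in the less weight loss pool. Its 4 arrays were on both sides of 0.

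The 28 accessory subunits of complex I with signal had medians of -0.040 and -0.0030. Their mean ratios ran from -0.11 for Ndufs4 to 0.077 for Ndufa9, and 27 of them lay within 0.1 of 0. Ndufa9 had 0.29, -0.13, 0.27 and -0.12, and its sign followed the dye. Ndufv3 was among the members with the largest difference between pools, with -0.14 in the greater and 0.035 in the less weight loss pool. Ndufa12 had 2 probes on opposite sides of 0, at -0.099 and 0.092 for the mean of both pools.

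The complex I assembly factors, which help build the complex but are not part of it, held 4 of the 10 members with one sign on all arrays. Of 6 complex I assembly factors not taken by symbol, 0 were above and 0 below 0 on all arrays. Ndufaf1, which acts in assembly of the membrane arm, had -0.27, -0.17, -0.031 and -0.18, a mean of -0.17 ± 0.082 (SD, n = 2 pools). Ndufaf7, a methyltransferase, had -0.29, -0.070, -0.079 and -0.076, and its mean was -0.13 ± 0.074. Ndufaf6 had a mean of -0.098 and was also below 0 on all arrays. Ndufaf4 went the other way on its brightest probe, with 0.064, 0.12, 0.10 and 0.16 and a mean of 0.11 ± 0.027. A second, dimmer probe of Ndufaf4 had a mean of -0.020, and with background corrected by normexp and loess the brightest probe stood at -0.0069. None of these genes passed limma, with adjusted p-values of 0.559 for Ndufaf1, 0.595 for Ndufaf7, 0.529 for Ndufaf6 and 0.428 for Ndufaf4.

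Complex II links the citric acid cycle to the chain, and its 4 genes had medians of -0.045 and 0.063. Sdha, the flavoprotein, had -0.032, -0.16, -0.093 and 0.22. Sdhb, the iron-sulphur subunit, had -0.032 and -0.050 in the greater and 0.088 and 0.039 in the less weight loss pool, so that its arrays did not overlap between pools. The membrane anchors Sdhc and Sdhd had pool means of -0.020 and 0.12, and -0.048 and -0.099. On the probes used, only Sdhd lay lower in the less than in the greater weight loss pool. A second, dimmer probe of Sdha with signal in all channels also did, with 0.080 in the greater and 0.041 in the less weight loss pool.

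**Figure D2:**
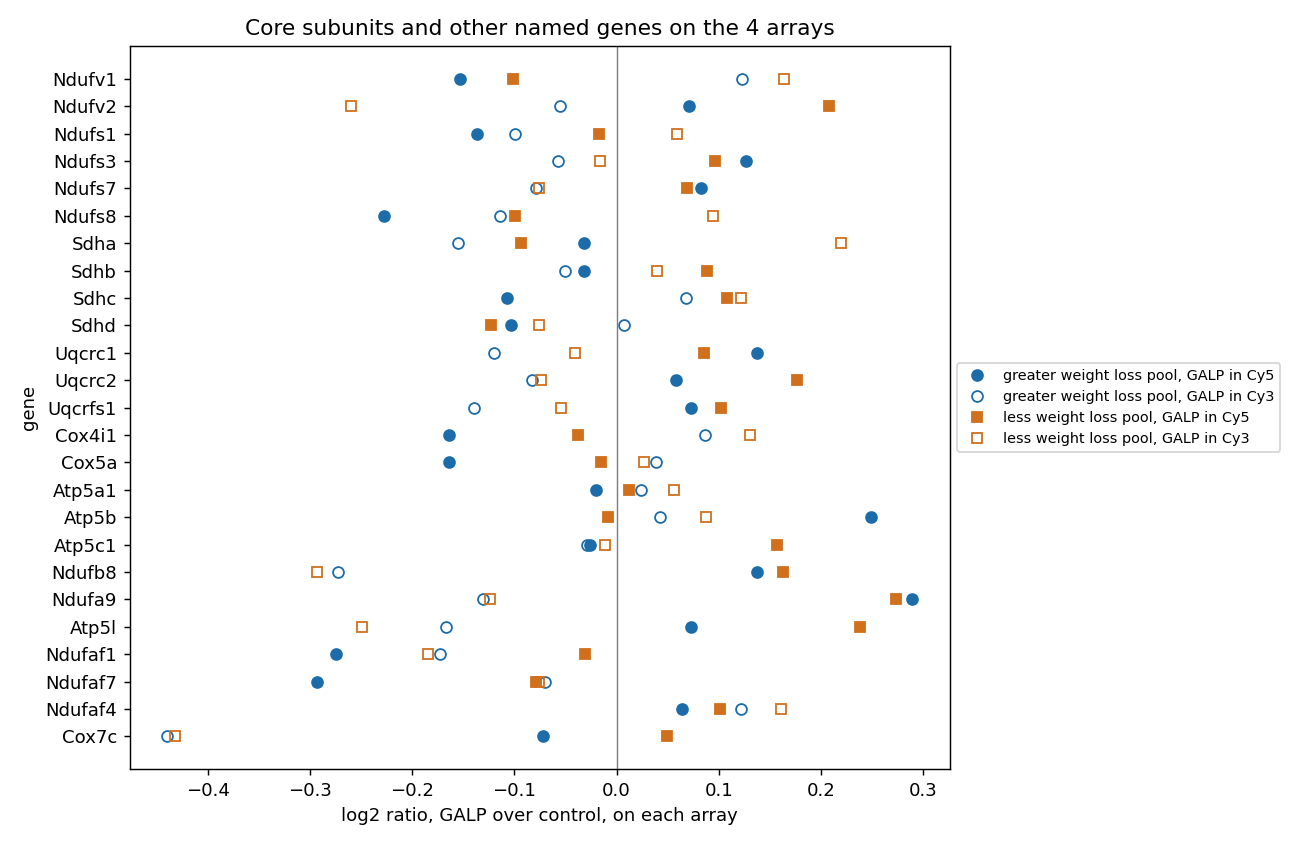
Log2 ratio of GALP over control (horizontal axis) on each of the 4 arrays for core subunits and other genes described in the text. Circles are the greater and squares the less weight loss pool, filled with GALP in Cy5 and open with GALP in Cy3; for Ndufb8 and Ndufa9 filled and open symbols lie on opposite sides of 0, and those of Ndufaf4 all lie above it.

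Complex III had medians of -0.045 and 0.022 over 7 genes. The core proteins Uqcrc1 and Uqcrc2 had pool means of 0.0087 and 0.022, and -0.013 and 0.051. Uqcrfs1, the Rieske iron-sulphur protein, had -0.033 and 0.024. Uqcr10, a small subunit, differed most among them: it had -0.22 and -0.12 in the greater and 0.14 and 0.020 in the less weight loss pool, and the arrays did not overlap between pools. On the probes used, all 7 genes had a lower ratio in the greater than in the less weight loss pool. A second, dimmer probe of Uqcrc1 had the other order, with 0.11 in the greater and 0.064 in the less weight loss pool. Uqcrq could be read only on a dim second probe that was well above background in 6 of 8 channels. Its bright probe, unmarked on the 2 arrays with GALP in Cy5, had -0.079 in the greater and -0.061 in the less weight loss pool.

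Complex V had medians of -0.031 and 0.0080 over 17 genes, all within 0.1 of 0 in their mean ratio. The catalytic subunits Atp5a1 and Atp5b had pool means of 0.0019 and 0.034, and 0.15 and 0.040, and the central stalk subunit Atp5c1 had -0.027 and 0.072. Atp5b was read on its second brightest probe, because the brightest was marked on both arrays of the less weight loss pool. A dimmer probe of Atp5b had a mean of -0.14 against 0.093 for the one used. Atp5g1, which codes for a subunit of the rotating ring, had 0.093, 0.049, 0.11 and 0.066 and was above 0 on all arrays, with a mean of 0.078 ± 0.010 (SD, n = 2 pools) and an adjusted p of 0.409 by limma.

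Complex IV held the exceptions. Its common subunits lay near 0: Cox4i1, the large regulatory subunit, had pool means of -0.039 and 0.046, and Cox5a had -0.063 and 0.0060. Without the 3 striated muscle isoforms, the 10 genes with signal had medians of -0.035 and -0.010. Cox7c was the lowest of these at -0.072, -0.44, 0.050 and -0.43. Its mean was -0.22 ± 0.046 (SD, n = 2 pools), with an adjusted p of 0.407 by limma, and it lay lower with GALP in Cy3 in both pools. Its probe was dim, with a mean signal of 163.7, and normexp with loess gave -0.060. A second dim probe of Cox7c had a mean of -0.37.

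Cox6a2 was measured by a probe at chr7:135349160-135349219 and Cox8b by a probe at chr7:148084852-148084911, both positions of the mm9 build given with the array; the exon or UTR they lie in was not analysed here. Cox6a2 had 0.14 and 0.13 in the greater and -2.61 and -1.56 in the less weight loss pool. Cox8b had 0.073 and 0.039 in the greater and -2.73 and -2.51 in the less weight loss pool. Both genes were near control in one pool and far below it in the other, and the arrays did not overlap. The control signals of Cox8b were 513.1, 530.5, 533.8 and 490.2 and its GALP signals were 539.8, 545.1, 80.2 and 86.0. It was thus the GALP channel and not the control that differed. The same held for Cox6a2, with control signals from 657.8 to 815.8 and GALP signals of 872.4, 718.9, 134.0 and 274.7.

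In the less weight loss pool alone, the fold and p-value rule called these 2 of 83 members lower (2.41%), where 0.732% of all genes with signal were called lower and 0.62% higher. In the greater weight loss pool alone it called 0 members, with 0.742% of all genes called higher and 0.92% lower. With normexp and loess, which change the background correction and the dye normalisation together, the ratio in the less weight loss pool was -0.98 for Cox6a2 and -0.95 for Cox8b. Over both pools limma gave adjusted p-values of 0.725 and 0.703, and with 1 replicate per pool the difference between pools was not tested.

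The third muscle isoform did not share these ratios. Cox7a1 had -0.010, 0.051, -0.30 and 0.011, so that only 1 array was clearly below 0. Its probe was brighter, with a mean signal of 2631 against 634.4 for Cox6a2 and 414.8 for Cox8b. A fall in signal of a given size moves the ratio of a brighter probe less. Its GALP and control signals in the less weight loss pool were 2585.4 and 3193.5, then 2266.1 and 2249.5. Whether its signal fell by a like amount was not tested. The liver-type partners were near 0 in the less weight loss pool, where Cox6a1 had -0.0084, Cox7a2 had -0.013 and Cox8a had 0.046. Of the remaining tissue isoforms, Cox4i2, Cox7b2 and Cox8c could not be ranked. Cox4i2, the lung form, was well above background in 0 of 8 channels, Cox7b2 in 1 and Cox8c in 2. Cox6b2, a testis form, was dim but had signal in all channels, with 0.38, -0.43, -0.044 and -0.22.

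Markers of skeletal muscle had the same pattern as Cox6a2 and Cox8b. Of 12 skeletal muscle markers, 5 had signal in all channels, and their ratios ran from 0.17 to 0.38 in the greater and from -2.96 to -2.14 in the less weight loss pool. Over the whole list, with or without signal in all channels, 8 of 12 were called lower in the less weight loss pool alone. In the greater weight loss pool alone 1, Myh4, was called higher. Of all genes with signal in all channels, 0.732% were called lower in the less and 0.742% higher in the greater weight loss pool alone. No share was worked out that includes genes without such signal. Acta1, skeletal actin, had 0.49, 0.16, -2.38 and -2.92. Myoglobin (Mb), an oxygen store of muscle, had 0.063, 0.27, -2.46 and -1.81. The summed signal of the 12 markers was 6478 to 8197 in the control channels, 8134 and 9736 with GALP in the greater weight loss pool, and 1317 and 1582 in the less weight loss pool. Pvalb was well above background in 0 channels and Actn3 in 1. Of the 5 heart markers 0 had signal in all channels. In pooled tissue fewer cells of a type and less RNA per cell cannot be told apart, and the part of muscle RNA in the values of Cox6a2 and Cox8b was not tested.

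**Figure D3:**
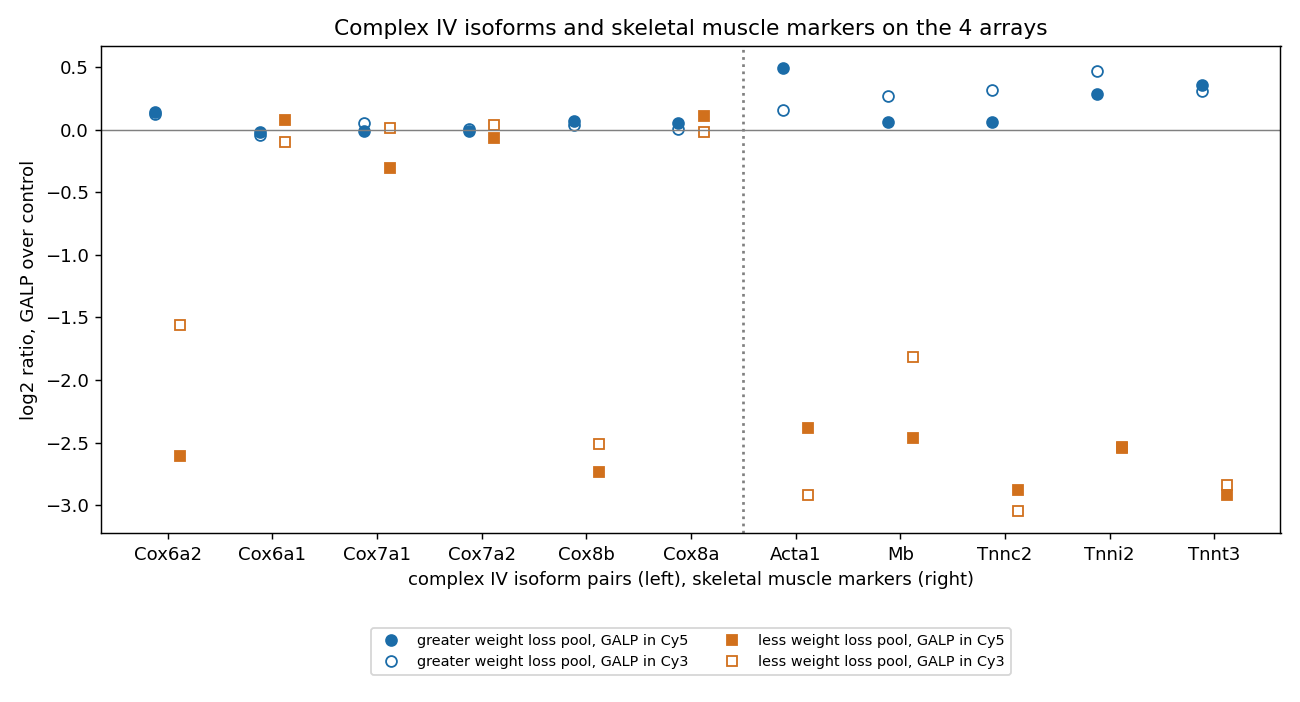
Log2 ratio of GALP over control (vertical axis) on the 4 arrays for complex IV isoforms, each muscle form beside its liver form, and for the 5 skeletal muscle markers with signal. Circles are the greater and squares the less weight loss pool, filled with GALP in Cy5 and open with GALP in Cy3; the squares of Cox6a2, Cox8b and the 5 markers lie between -3.05 and -1.56, and those of Cox7a1, Cox6a1, Cox7a2 and Cox8a between -0.30 and 0.11.

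The promoter of Cox8b is shown beside those of Cox7a1, a muscle form that did not share its ratio, and Cox8a, its liver partner. Each is the 300 bases around the RefSeq transcription start, 5′ to 3′ on the gene's strand (GRCm38.p6). Cox8b lies at chr7:140900397-140900696 (minus strand), Cox7a1 at chr7:30183921-30184220 (plus) and Cox8a at chr19:7217567-7217866 (minus). Capitals mark matches to any of 6 motifs searched on both strands: NRF1, CCGGAAG (an ETS site), AAGATGG (a YY1 site), TNAAGGTCA (an estrogen-related receptor site), and MEF2 and CANNTG (the E-box), the last 2 chosen after the values were seen.
Cox8b: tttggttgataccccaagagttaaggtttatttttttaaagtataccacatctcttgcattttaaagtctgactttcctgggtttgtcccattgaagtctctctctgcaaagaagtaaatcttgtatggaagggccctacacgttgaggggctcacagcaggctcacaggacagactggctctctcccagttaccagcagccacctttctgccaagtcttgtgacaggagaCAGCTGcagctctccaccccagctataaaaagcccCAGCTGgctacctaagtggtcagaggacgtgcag
Cox7a1: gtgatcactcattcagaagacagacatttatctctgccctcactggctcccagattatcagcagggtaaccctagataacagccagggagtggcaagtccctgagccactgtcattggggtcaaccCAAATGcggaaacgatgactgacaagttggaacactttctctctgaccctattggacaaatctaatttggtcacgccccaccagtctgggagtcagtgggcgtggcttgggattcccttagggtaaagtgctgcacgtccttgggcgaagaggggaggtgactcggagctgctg
Cox8a: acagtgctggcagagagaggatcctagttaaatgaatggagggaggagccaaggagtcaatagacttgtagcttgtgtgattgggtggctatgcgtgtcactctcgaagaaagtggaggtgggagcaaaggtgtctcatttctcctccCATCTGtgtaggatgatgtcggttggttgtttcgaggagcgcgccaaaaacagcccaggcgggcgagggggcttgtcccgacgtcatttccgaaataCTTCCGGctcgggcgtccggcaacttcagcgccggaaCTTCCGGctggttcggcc
Cox8a held 2 matches to CCGGAAG and 1 to CANNTG, Cox8b held 2 to CANNTG and Cox7a1 held 1 to CANNTG. Cox8b and Cox7a1 held 0 matches to the other 5 motifs in this window.

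Promoters were given for 76 of the 92 members, and Cox6a2 was not among them. CCGGAAG was found in 17 of these (22.4%) against 9.12% of all 27025 promoters, AAGATGG in 10 (13.2%) against 6.48%, NRF1 in 6 (7.89%) against 1.31% and TNAAGGTCA in 3 (3.95%) against 1.26%. CANNTG was found in 71.1% of the members and 72.1% of all promoters, and MEF2 in 0 members and 3.26% of all. A match is a description of letters and not of binding.

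The 2 pools were set side by side for the members as a whole. The ratio was lower in the greater than in the less weight loss pool for 61 of 83 members (73.5%), compared with 47.2% of all genes with signal, and the median difference was -0.039 against 0.010. With 1 replicate per pool this offset was not tested.

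In genes around the chain, 0 genes of the 11 lists of mitochondrial genes were called in both pools. The mean ratio lay within 0.1 of 0 for 40 of 45 large subunit proteins of the mitochondrial ribosome. The same held for 19 of 23 assembly factors of complexes II to V and 7 of 9 coenzyme Q genes. It also held for 8 of 13 citric acid cycle genes, 8 of 12 biogenesis regulators and 3 of 5 carriers. Over all genes with signal the share was 52.5%. Cyc1, cytochrome c1 of complex III, and Cycs, the cytochrome c that carries electrons from complex III to complex IV, had mean ratios of -0.053 and -0.069. The mitochondrially encoded ND4 and CYTB, the only 2 found on the array among the 26 names searched for such subunits, had -0.059 and -0.099. The 23 assembly factors of complexes II to V with signal had medians of -0.048 and -0.0067, and the 6 further assembly factors of complex I had -0.048 and 0.048. The 45 large subunit proteins of the mitochondrial ribosome had -0.027 and -0.046, with 9 below and 0 above 0 on all arrays. Of all genes with signal, 14.8% were below and 13.1% above 0 on all arrays.

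Of 9 coenzyme Q genes with signal, Coq8a, a kinase-like protein needed for coenzyme Q synthesis, stood apart from the rest at -0.48, -0.51, -0.78 and -0.68, all below 0. It was called lower in the less weight loss pool alone and was chosen after its values were seen, while Coq7 had a mean of 0.047. Among carriers, Slc25a4, the ADP/ATP carrier of muscle and heart, had 0.35, 0.044, -0.59 and -0.59 and was also called lower in the less weight loss pool alone. Ucp2, an uncoupling protein family member, had 0.33, 0.19, 0.23 and 0.45, above 0 on all arrays. The ATP synthase inhibitor Atpif1 had a mean of 0.10 and was above 0 on all arrays.

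Among regulators of mitochondrial biogenesis, Ppargc1a, a coactivator of mitochondrial genes, had -0.43, -0.11, -0.047 and -0.53, a mean of -0.28 ± 0.012 (SD, n = 2 pools). Tfam, which maintains mitochondrial DNA, had a mean of -0.070. The 12 regulators with signal had medians of -0.011 and -0.072. In the citric acid cycle, which supplies NADH and succinate, the 13 genes had medians of -0.034 and 0.067. Cs, citrate synthase, had -0.15, -0.38, -0.16 and -0.41, below 0 on all arrays, with a mean of -0.27 ± 0.014. Ogdh, also of the cycle, had 0.29, 0.22, 0.0305 and 0.55, above 0 on all arrays, with a mean of 0.27. The SD is taken between pool means and does not hold the gap between the 2 arrays of a pool.

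**Figure D4:**
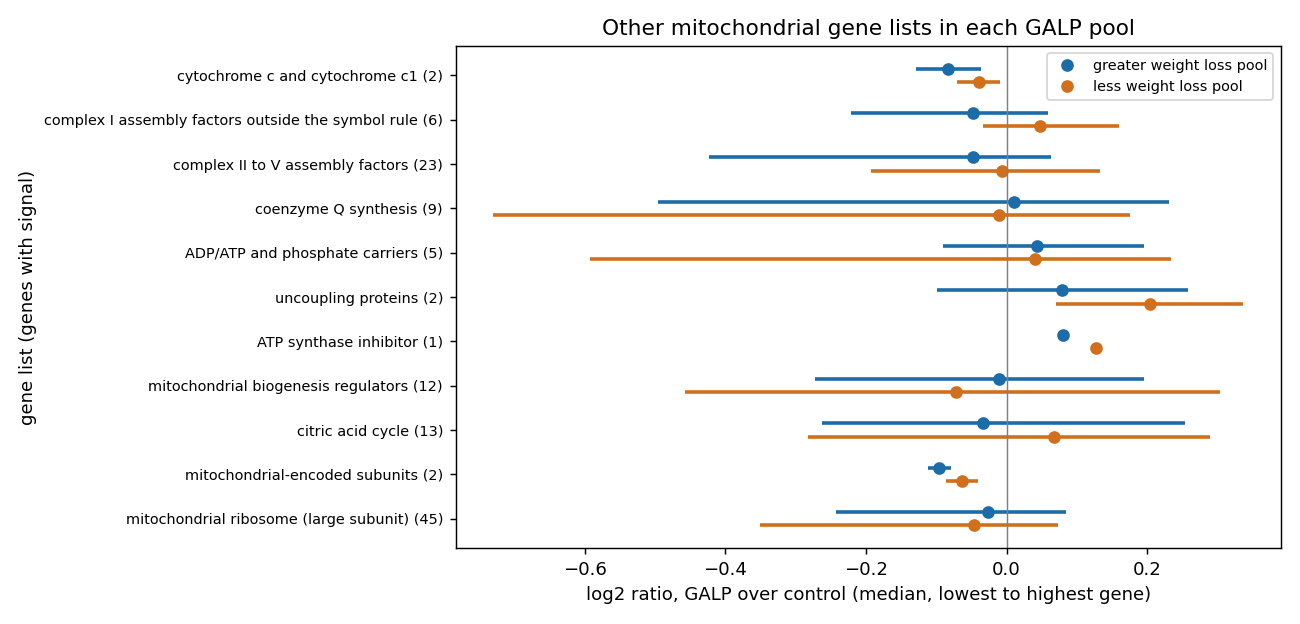
Log2 ratio of GALP over control (horizontal axis) for 11 lists of mitochondrial genes in the greater (blue) and less (orange) weight loss pool, with the number of genes with signal in brackets. Points are medians and lines run from the lowest to the highest gene; all medians lie between -0.10 and 0.21.

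Markers of other cell types were read as well. The 5 Kupffer cell markers had medians of 0.13 and 0.16, with 1 called higher in both pools, and the 4 endothelial markers had 0.072 and 0.022. Of 7 brown adipose markers 5 had signal, 2 of which are members (Cox7a1 and Cox8b). Elovl3 had -0.89 and -1.51 and was called lower in both pools. Cidea had -0.67 and 0.24, and Ppargc1a had -0.27 and -0.29. Ucp1 was well above background in 0 of 8 channels. The paper counts Elovl3 among fatty acid synthesis genes that were lower in the liver with GALP. Of the 3 white adipose markers with signal, Adipoq had 0.38 and -0.26, Cfd had -0.89 and -0.74, and Fabp4 had 0.41 and 0.28. The 1 testis marker with signal had -0.13 and -0.15.

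For 4 members there was no probe free of outlier marks on all arrays. Ndufa4 had -0.0074 and 0.043 in the greater weight loss pool and was marked in the other. Cox7b was left with 1 array at 0.11, Ndufb11 with -0.081 and -0.035 on 1 array of each pool, and Ndufb4 with -0.075, -0.070 and 0.040 on 3 arrays. Ndufaf5 was well above background in 6 of 8 channels.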

How the data were processed

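Liver RNA was hybridised to 4 two-colour Agilent 4x44K arrays. The deposited scanner files hold intensities, log10 ratios of Cy5 over Cy3 and their p-values, made by the authors with Agilent Feature Extraction (12.0.3.1 per the file headers, 11.0.1.1 in the submitters' processing notes), which subtracts background and normalises the dyes. These log10 ratios were turned to log2 GALP over control. Control spots and spots with outlier marks were left out, and the spots of 1 probe averaged. The series table held the same ratios (tolerance 0.001, log2) except where the software had set a ratio to exactly 0. Dye-swapped arrays were averaged to 1 value per pool, since they share extracts. Probes on 2 pools were tested against 0 with limma 3.58.1 (R 4.3.3), which leaves 1 residual degree of freedom. Their p-values were adjusted over all 41037 probes (Benjamini-Hochberg). The procedure was tested on simulated data whose variances were more even than those here, which does not show its power in these data. Genes not well above background in all 8 channels (flags of the software) were left out of medians and counts. The p-values measure only the spread between 2 pools. Whether the mice of the pools were housed or extracted as batches is not given in the sources used here. The sources differ on the length of acclimatisation.

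The text names members called, complex II, the core subunits, tissue isoforms, the 5 highest, 5 lowest and 5 with the largest difference between pools, and a set of outside genes; others were chosen after their values were seen. Some genes that this rule takes are not reported here. The members, gene lists and motifs were chosen with earlier results of these data known. Promoters are from RefSeq (GRCm38.p6), matched by symbol. Alternatives were normexp (offset 50) with loess, centring, the series table, outlier marks kept, either dye orientation, other rules for probes, calls and limma, and each pool alone.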

Additional observations from a re-analysis of the deposited data

Results flagged for a closer look

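Both arrays of one pool lay above 0 and both arrays of the other below it for 7 of 83 members (8.43%) and 6.06% of all genes with signal; the difference between the pools was not tested. Among the genes described, 4 members and 3 other genes with signal in all channels had this pattern. Cox8b differed by 2.68 on the log2 scale (greater minus less weight loss pool, 0.056 against -2.62) and Cox6a2 by 2.22 (0.14 against -2.08). Both are muscle forms of complex IV subunits, and the skeletal muscle markers differed in the same direction, from 0.17 to 0.38 in the greater and from -2.96 to -2.14 in the less weight loss pool. Uqcr10 of complex III differed by -0.25 (-0.17 against 0.079) and Sdhb of complex II by -0.10 (-0.041 against 0.064). Outside the members, Acta1 differed by 2.98 (0.33 against -2.65), Mb by 2.30 (0.17 against -2.14) and Slc25a4, the muscle and heart form of the ADP/ATP carrier, by 0.79 (0.20 against -0.59).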

How the results depend on the processing

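The counts of 0 members called in both pools and 0 members past limma's threshold held under every setting run on both pools, which included other rules for p and fold, other probes per gene, the intensity trend and the 4 arrays with the pool as a random block. That last fit, in which the arrays of a pool correlated at -0.39, called 106 of 41037 probes, and its smallest adjusted p for a member was 0.0881. The median of the members was -0.018 and stayed within the spread between pools except with GALP in Cy3 only, where it was -0.045. With GALP in Cy3 only the medians were -0.052 for complex I, -0.079 for complex III and 0.0033 for complex IV. With GALP in Cy5 only they were 0.015, 0.024 and -0.074, and the median difference between pools was -0.030. With normexp and loess, complex II stood at -0.099, complex IV at -0.042 and the difference between pools at -0.028, and 0 members were above 0 on all arrays. Centring gave 6 such members and -0.010 for complex IV. Leaving out either pool, members called lower ranged from 0 to 2 (Cox6a2 and Cox8b without the greater weight loss pool), the median of complex III from -0.045 to 0.022 and that of complex IV from -0.025 to -0.013. limma could not be fitted on 1 pool. Of 295 values of single genes under an alternative, 60 moved by at least the spread between pools and 50 changed sign. Of those 50, 3 belonged to genes whose value was over 0.1 (Ndufaf4 with normexp, and Cox6a2 and Cox8b without the less weight loss pool). The cause was not tested. Leaving out a pool always moves a mean over the pools by less than this spread, so such values could not count among the 60. The series table repeated the main values of these genes and could not add to the 60 either. Filters on signal, a mean signal of at least 1000 and leaving out the 3 muscle isoforms were added after seeing the data. No paired analysis was possible because the replicate numbers mark dye orientation and not paired samples.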
